A study of Ovis aries with 36 samples.

Results

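Cerebellum-enriched genes are described here in 36 RNA-seq libraries from the brains of 9 sheep lambs. They were chosen by their measured levels. A gene was taken when its mean in the cerebellum was at least 10 CPM (the gene's counts scaled to a library total of 1000000) and at least 8-fold above the highest of its means in the 3 other regions. The cerebellum mean was taken over 6 libraries, those of lambs A, B, C, E, F and I. Cerebellum libraries D, G and H were left out of that mean and are described apart from the 6. The other regions were the hippocampus, motor cortex and basal ganglia, each a mean over 9 libraries. The rule found 64 of 27054 genes, among 10868 genes with a cerebellum mean of at least 10 CPM.

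The study compared lambs supported outside the womb with lambs that were not. Lambs A to E, delivered preterm, were connected by cannula straight away and kept on EXTEND, an artificial-womb system, until necropsy at a gestational age near 127 days; A, B, D and E were female and C was male. Lambs F and G, both male, were delivered at 127 days as the late preterm controls, and lambs H (female) and I (male) were delivered preterm as the preterm controls. Both control arms went to necropsy directly after delivery. The labels name no strain, no gestational age at birth for the preterm lambs and no length of support, so time after birth and gestational age cannot be separated between the supported and preterm arms. With 2 lambs in each control arm, the spread within those arms rests on 2 animals.

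The cerebellum forms from the dorsal hindbrain. Its commonest neurons are granule cells, small excitatory cells whose precursors divide in an outer layer, driven by Sonic hedgehog from Purkinje cells, and then migrate inwards. Purkinje cells, the inhibitory output neurons of the cerebellar cortex, and the glia around them use sets of transcription factors, receptors and calcium-handling proteins that forebrain neurons largely lack. Much of the growth of the cerebellum falls late in gestation and around birth.

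The deposited table gives Ensembl sheep gene identifiers without symbols, and 0 of them could be paired with a symbol in the reference table of 35057 sheep genes. The genes are therefore called by identifier, their functions are not stated, and the labelled tissue could not be checked against the defining markers of granule cells, Purkinje cells or forebrain neurons. CPM is not divided by gene length, so levels are compared between libraries for 1 gene at a time, and an order of genes by CPM is an order of read numbers only. In bulk tissue, fewer cells of a type and less RNA per cell cannot be told apart.

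Several libraries stood apart. Counted reads per library ran from 8782652 to 18153142, and lambs A, H and I were sequenced less deeply than lambs B to G. In the cerebellum, H was the shallowest library and had a TMM scaling factor of 0.748, against 1.01 to 1.09 for the other 8. D and G carried reads of genes that were otherwise low in the cerebellum, the basal ganglia library of C and the motor cortex library of B carried reads of the cerebellum-enriched genes, and the values for each are given below.

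The 64 genes ranged from 8.02-fold to 114-fold above the next region, with a median of 16.3-fold. At least 16-fold separated 34 of them, at least 50-fold separated 9, and 9 lay below 10-fold. Cerebellum means ran from 11.2 to 1342 CPM, with a median of 61.0 CPM. The mean was at least 100 CPM for 27 genes and below 20 CPM for 11. These values chose the genes and are a description. The same holds for the separation of libraries: in 58 genes all 6 cerebellum libraries lay above all 27 libraries of the other regions, and in 38 genes all 9 did. Among the 10868 genes with a cerebellum mean of at least 10 CPM, all 6 lay above all 27 in 1312. The count for all 9 libraries was not made over those genes. The next-highest region was the basal ganglia for 52 genes, the hippocampus for 8 and the motor cortex for 4. With the basal ganglia library of C left out, these numbers became 31, 18 and 15, and the rule would have found 69 genes.

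**Figure D1:**
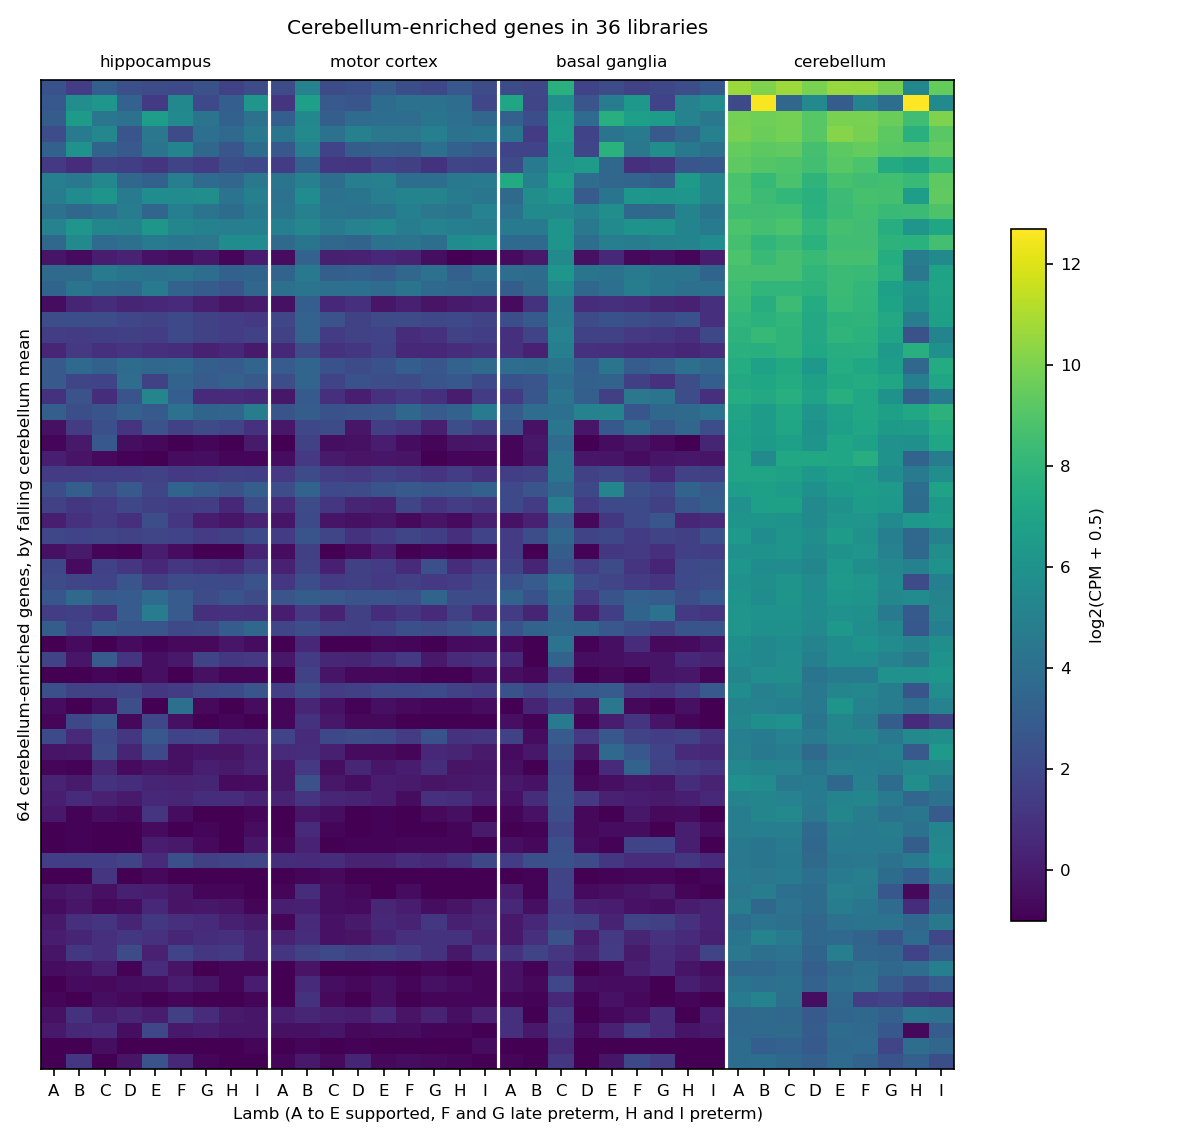
Level of each cerebellum-enriched gene (rows, by falling cerebellum mean) in each library (columns, by region and lamb), coloured by log2(CPM + 0.5). The cerebellum block is brighter than the other 3 regions for nearly every gene, H is darker than the other cerebellum libraries for many rows, and the basal ganglia column of C is the brightest outside the cerebellum.

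The edge of the rule fell among genes with similar values. Just inside lay ENSOARG00000009537 at 8.02-fold (16.95 against 2.11 CPM), ENSOARG00000020303 at 8.07-fold (59.9 against 7.42 CPM) and ENSOARG00000011582 at 8.13-fold (424 against 52.2 CPM). Just outside lay ENSOARG00000000876 at 7.94-fold (279.6 against 35.2 CPM), ENSOARG00000021048 at 7.92-fold (327 against 41.3 CPM) and ENSOARG00000013019 at 7.85-fold (127 against 16.2 CPM). A 4-fold rule would have taken 148 genes.

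The 8 genes with the highest cerebellum means held 53.5% of the summed mean of all 64. ENSOARG00000008845 had the highest, 1342 ± 380.2 CPM (SD, n = 6). Its supported libraries A to E read 1608, 1065, 1663, 993 and 1540 CPM, the late preterm libraries F and G 1477 and 939 CPM, and the preterm libraries H and I 38.1 and 698 CPM. Both preterm libraries were below the other 7, and H kept 2.84% of the mean of the 6.

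ENSOARG00000006342, the second by this order, was a different case. Its CPM was 3.49, 5968, 10.97, 42.6 and 7.55 in lambs A to E, 34.0 and 14.95 in F and G, and 6606 and 44.6 in H and I. Only B and H were high, so its mean of 1011 CPM had an SD of 2428 (n = 6) and it met the rule through 1 library, B. Outside the cerebellum it lay between 1.56 and 132 CPM, highest in the basal ganglia of A and next in the motor cortex of B, at 105 CPM. Lambs B and H belong to different arms.

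A pair of genes with many reads were the steadiest of the 64. ENSOARG00000005467 read 710, 605, 652, 398 and 605 CPM in A to E, 703 and 555 CPM in F and G, and 525 and 664 CPM in H and I. Its coefficient of variation (CV, SD over mean) across the 6 libraries was 0.0693, and D was its lowest library. ENSOARG00000005434 read 917, 823, 926, 557 and 989 CPM in A to E, 996 and 774 CPM in F and G, and 356 and 1048 CPM in H and I, with a CV of 0.0829. Its low libraries were H and D, while I was its highest, so the 2 preterm libraries were at opposite ends. ENSOARG00000015662, next in steadiness with a CV of 0.0885, read 61.4, 65.8, 67.6, 46.3 and 62.7 CPM in A to E, 69.1 and 33.3 CPM in F and G, and 11.3 and 53.5 CPM in H and I.

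The other 4 genes of the leading 8 made 2 pairs by their level in the preterm lambs. ENSOARG00000016998 read 956.5, 772, 902, 553 and 1163 CPM in A to E, 938 and 598 CPM in F and G, and 208 and 591 CPM in H and I. ENSOARG00000010333 read 622, 514, 492.7, 370.0 and 561 CPM in A to E, 453.5 and 167 CPM in F and G, and 117 and 272 CPM in H and I. In both genes D was the lowest supported library and H the lowest of all 9. ENSOARG00000011582 read 437, 286, 433, 242 and 411 CPM in A to E, 357.5 and 367 CPM in F and G, and 313.5 and 620.5 CPM in H and I. ENSOARG00000019080 read 445, 331, 263, 203 and 338 CPM in A to E, 414 and 406 CPM in F and G, and 98.2 and 643 CPM in H and I. In these 2 genes I was the highest library of the 9, while H lay inside the supported range of the former and below that of the latter.

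Across the 64 genes the CV over the 6 libraries had a median of 0.276. It was below 0.3 for 38 genes and above 0.5 for 7. After ENSOARG00000006342, the most variable were ENSOARG00000014882 (CV 0.849) and ENSOARG00000005410 (CV 0.647). ENSOARG00000014882 read 24.9, 33.9, 15.85, 0.224 and 12.0 CPM in A to E, 2.43 and 2.92 CPM in F and G, and 1.48 and 1.17 CPM in H and I. The supported libraries other than D were the high ones, and D, at 4 reads, was the lowest of all 9. ENSOARG00000005410 read 19.1, 34.6, 24.9, 11.5 and 12.1 CPM in A to E, 10.2 and 5.91 CPM in F and G, and 13.1 and 3.29 CPM in H and I, so that its arms overlapped through H.

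The 4 genes with the highest ratios were not those with the most reads. ENSOARG00000003533 had the highest, 114-fold (44.2 against 0.389 CPM), with 36.6, 51.3, 54.2, 19.7 and 25.6 CPM in A to E, 24.4 and 60.0 CPM in F and G, and 59.2 and 73.2 CPM in H and I. It was one of the few genes at a high level in G and H. ENSOARG00000003607 followed at 91.0-fold (11.3 against 0.124 CPM) and had no read in 21 of the 27 other libraries. Its cerebellum libraries read 14.0, 8.08, 9.40, 6.84 and 12.1 CPM in A to E, 13.4 and 3.19 CPM in F and G, and 14.35 and 10.8 CPM in H and I. G was its low library and H its highest.

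ENSOARG00000025272 stood at 67.0-fold (113 against 1.69 CPM) and read 108, 86.5, 105, 68.0 and 134 CPM in A to E, 113 and 61.2 CPM in F and G, and 59.0 and 133 CPM in H and I. Its 3 lowest libraries were D, G and H. ENSOARG00000013814, at 66.8-fold (249.9 against 3.74 CPM), read 301, 183, 338.5, 171 and 304 CPM in A to E, 258 and 123 CPM in F and G, and 56.4 and 114 CPM in H and I. Here both preterm libraries lay below all the rest.

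Summed over the 64 genes, the cerebellum libraries gave 1.17%, 1.55%, 1.13%, 0.713% and 1.13% of their counts to these genes in lambs A to E. The late preterm libraries gave 1.09% in F and 0.716% in G, and the preterm libraries 1.03% in H and 0.846% in I. D and G were the lowest as they stand. Most of the sum in H was the single gene ENSOARG00000006342. Without it H fell to 0.372%, the lowest of the 9, and B to 0.953%. The 27 libraries of the other regions gave between 0.0222% and 0.163%, with a median of 0.0361%, so every cerebellum library lay above every other library with or without that gene.

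A list made by the reverse of the rule was set beside this sum. It holds 86 genes whose lowest mean in the 3 other regions was at least 10 CPM and at least 8-fold above the cerebellum mean. These genes took 0.0458% to 0.0618% of the counts in the 6 cerebellum libraries, 0.602% in D, 0.450% in G and 0.0898% in H. In the other regions they took 0.391% to 1.49%. The 6 cerebellum libraries and those of the other regions chose the 86 genes, and D, G and H did not. Low shares in the 6 are thus partly built in, and these shares are a description. D and G, the libraries with lower sums of the 64 genes, thus had higher sums of the 86 genes, whereas H did so to a much smaller degree. Their part in the levels below was not tested.

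**Figure D2:**
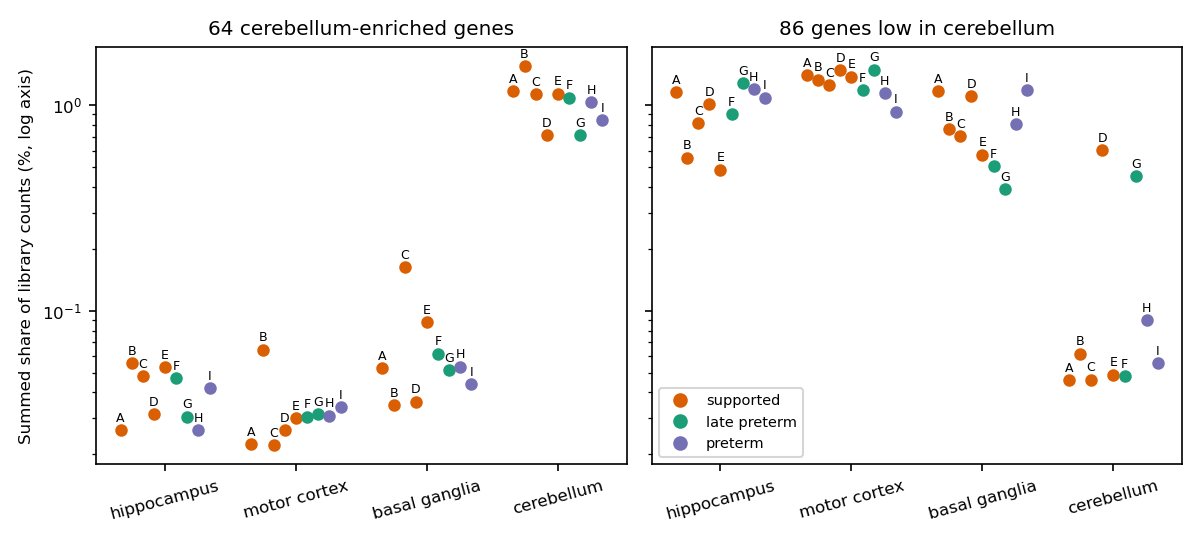
Share of each library's counts (percent, log axis) held by the 64 cerebellum-enriched genes (left) and by the 86 genes low in the cerebellum (right), by region, with 1 point per lamb coloured by arm. In the cerebellum, D (0.602%) and G (0.450%) sit near the other regions for the 86 genes, and the basal ganglia point of C (0.163%) and the motor cortex point of B (0.0646%) lie above their regions for the 64 genes.

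The libraries left out of the rule's mean were read gene by gene as a percentage of the mean of the 6. In D the median gene stood at 62.7% (10th to 90th percentile 48.9% to 80.3%), and 59 of 64 genes lay between 40% and 90%. In G the median was 63.9% (36.3% to 88.4%), with 52 genes between 40% and 90%. In H it was 28.0% (6.40% to 112%), and only 16 genes fell between 40% and 90%. D and G were thus lower by a similar share for most genes, and H was uneven. For the 6 libraries that chose the genes, the medians were 108% in A, 93.9% in B, 102% in C, 102.5% in E, 99.5% in F and 80.8% in I.

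Over all 10868 genes with a cerebellum mean of at least 10 CPM, the median was 95.1% in D, 98.0% in G and 64.1% in H. Below 50% of the mean were 7 cerebellum-enriched genes in D, 17 in G and 38 in H, while of all such genes 1.31% in D, 0.755% in G and 42.2% in H were that low. H was therefore low for a large share of all genes and not for these alone. The 6 libraries of the mean chose the 64 genes and D, G and H did not, so these shares carry no test.

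Counted against each of the 6 libraries, D was below all of them in 34 genes, G in 29 and H in 46. H was above all 6 in 3 genes. Fewer than 10% of the mean remained for 13 genes in H, 2 in D, 1 in G and 3 in I. At or above the mean were 1 gene in D, 3 in G, 10 in H and 27 in I. I, a preterm library that belongs to the 6, was their lowest in 32 genes and their highest in 20. Its 10th to 90th percentile range, 20.2% to 153%, was wide. The counts given here for D, G, H and I were not made over all genes. They are therefore no measure of a difference from other genes, and H was low for a large share of all genes.

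**Figure D3:**
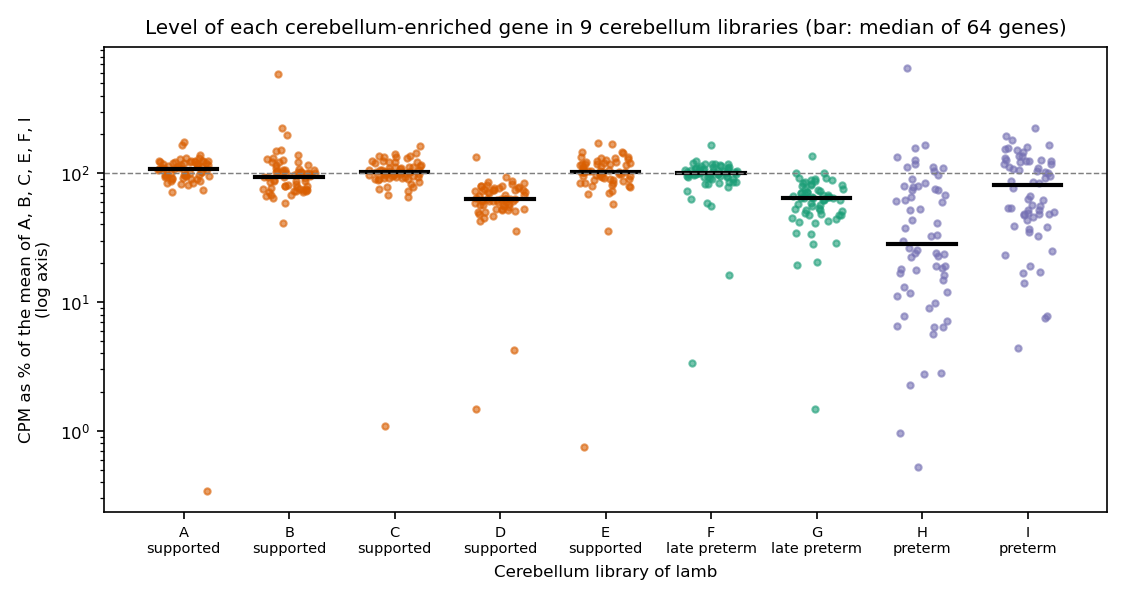
Level of each of the 64 genes in each cerebellum library as a percentage of the mean of A, B, C, E, F and I (log axis), with 1 point per gene coloured by arm, a bar at the median and a dashed line at the mean of the 6. D (median 62.7%) and G (63.9%) are shifted down as a body, while H (28.0%) and I (80.8%) are spread widely.

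The genes at the ends of these ranges were few. In D, ENSOARG00000006966 stood at 133% and ENSOARG00000013834 at 93.0%, and the lowest were ENSOARG00000014882 at 1.49% (95% exact Poisson interval 0.406% to 3.82%, counting error only) and ENSOARG00000006342 at 4.22%. In G, ENSOARG00000003533 stood at 136% and ENSOARG00000012916 at 101%, and the lowest were again ENSOARG00000006342 at 1.48% and ENSOARG00000014882 at 19.4%. For ENSOARG00000006342 the mean itself came from B, and its values in D and G lay inside the range of the other 5 libraries of the mean.

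In H, ENSOARG00000006342 stood at 653% and ENSOARG00000001968 at 166%. The latter read 57.1, 48.9, 22.1, 24.9 and 11.7 CPM in A to E, 31.0 and 13.8 CPM in F and G, and 54.2 and 25.1 CPM in H and I, a spread with no order by arm. At the low end, ENSOARG00000015839 and ENSOARG00000015862 had 1 read each in H, 0.528% (0.0134% to 2.94%) and 0.960% (0.0243% to 5.35%) of their means. ENSOARG00000015839 read 21.2, 27.1, 15.6, 13.6 and 31.1 CPM in A to E, 26.8 and 6.18 CPM in F and G, and 0.114 and 7.53 CPM in H and I. ENSOARG00000015862 read 12.5, 12.2, 12.8, 7.51 and 14.1 CPM in A to E, 12.1 and 6.18 CPM in F and G, and 0.114 and 7.42 CPM in H and I. In both genes I and G were close to each other and H was far below them.

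Within a lamb, the cerebellum library was set against the highest of its own 3 other libraries. It was above all 3 for 61 genes in H, for all 64 in B and D, and for 63 in each of the other 6 lambs. At least 8-fold separated 60 genes in A, 53 in B, 25 in C, 45 in D, 46 in E, 49 in F, 46 in G, 37 in H and 53 in I. The median ratio ran from 6.91 in C and 8.65 in H to 20.8 in I and 32.1 in A. In C the library set against the cerebellum was itself high, and in H the cerebellum library was low. Of all genes with at least 10 CPM in a lamb's own cerebellum library, between 0.262% (C) and 0.983% (A) were 8-fold above the other 3. Apart from cerebellum libraries D, G and H, these libraries chose the 64 genes by the same 8-fold cut. The counts are therefore a description, and the share over all genes is no test of them. For the genes above all 3, no share over all genes is given.

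Outside the cerebellum the genes were low but seldom absent. No other library was at 0 for 42 of the 64. In the basal ganglia library of C the median gene stood at 14.6% of its cerebellum mean (10th to 90th percentile 9.65% to 22.9%), and this library was the highest outside the cerebellum for 40 genes. In the motor cortex library of B the median was 4.5% (2.01% to 10.3%) and no gene was at 0. In the remaining 25 libraries the medians ran from 1.18% to 3.76%, and between 2 and 10 genes were at 0 in each. The lower ends show the difference best: the 10th percentile was at most 0.295% in those 25 libraries.

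The 86 genes low in the cerebellum took 0.708% of the counts in the basal ganglia library of C, inside the range of the other regions. The motor cortex library of B gave 0.0646% to the 64 genes, against 0.0222% to 0.0339% in the other 8 motor cortex libraries. The basal ganglia library of E gave more, 0.0877%, with a median gene at 2.94% and a 90th percentile of 17.1%. It was the highest library outside the cerebellum for 8 genes.

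**Figure D4:**
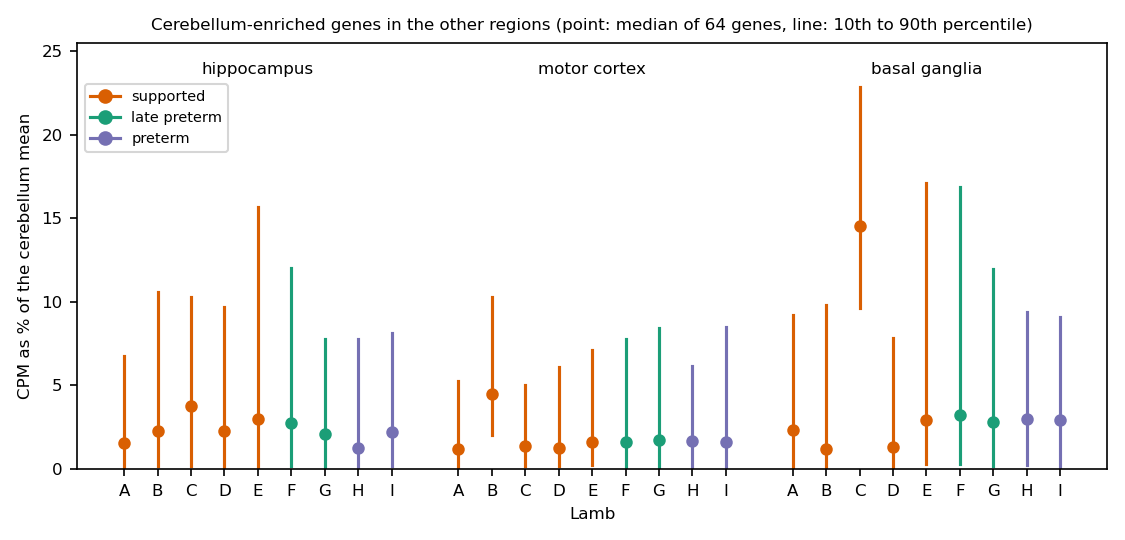
Level of the 64 genes in each hippocampus, motor cortex and basal ganglia library as a percentage of the cerebellum mean, with the median (point) and the 10th to 90th percentile (line), coloured by arm. The basal ganglia library of C has a median of 14.6% and the motor cortex library of B 4.5%, and both lines stay clear of 0.

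A few genes had a sizeable level in a single other library. ENSOARG00000017453 reached 24.5 CPM in the basal ganglia of C, 66.5% of its cerebellum mean of 36.8 CPM. ENSOARG00000014467 reached 21.1 CPM in the basal ganglia of E, 55.1% of its mean, and 16.2 CPM in the hippocampus of F. ENSOARG00000016068 reached 5.26 CPM in the hippocampus of E, 46.8% of its mean. These libraries belong to supported and late preterm lambs and to 2 regions.

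The first comparison asked how the cerebellum of supported lambs differed from that of preterm lambs. More of these genes were called higher than lower in supported lambs. With all 9 libraries, 17 of the 64 genes were called at an edgeR quasi-likelihood adjusted p under 0.05, and 15 were higher and 2 lower in supported lambs. Of all 16304 genes tested, 9.57% were called, 2.65% higher and 6.92% lower. The 64 genes had a median log2 fold change of 0.55, against 0.02 over all genes tested. The genes were chosen on a mean in which 4 of 6 libraries came from supported lambs and 1 from a preterm lamb, so the choice itself favours genes high in supported lambs and these counts are a description.

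The choice was varied after seeing the data. With the 3 arms weighted equally in the cerebellum mean, the rule found 62 genes, 58 of them shared, of which 15 were called (12 higher and 3 lower) with a median log2 fold change of 0.28. With only the late preterm lambs used in the rule, it found 59 genes, 48 of them shared, of which 13 were called (12 higher and 1 lower) with a median of 0.51. The rule with equal weights still used libraries of both arms compared. The late preterm lambs were of about the same gestational age as the supported lambs and were in the fit. A rule that uses them can thus still favour genes lower in preterm lambs, and the counts under both rules are a description.

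All 5 supported libraries lay above both preterm libraries in 25 of the 64 genes and below both in 6. Over all genes tested these shares were 15.6% and 14.5%. Of the 17 genes called, 16 had no overlap between the arms. In all 15 genes called higher, H was the lowest of the 9 cerebellum libraries, and both late preterm libraries lay above both preterm libraries in 12. In the other 3, G fell below I. These genes were called for a difference of the preterm libraries in a fit that held F and G. Their order and lack of overlap follow in part from the call, and are a description. No share over all genes called is given.

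ENSOARG00000017453 had the largest fold change. It read 37.8, 55.8, 59.8, 19.4 and 37.8 CPM in supported lambs A to E, 26.8 and 7.57 CPM in late preterm lambs F and G, and 1.02 and 2.76 CPM in preterm lambs H and I. The supported mean was 42.1 ± 16.2 CPM (SD, n = 5) and the preterm mean 1.89 ± 1.23 CPM (SD, n = 2), and the log2 fold change was 4.36 ± 0.72 (SE, adjusted p by edgeR 0.0247). The arms did not overlap, and the late preterm libraries lay above the preterm ones, with F inside the supported range and G below it.

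ENSOARG00000019063 read 229, 291, 235.5, 154 and 248 CPM in A to E, 217 and 129 CPM in F and G, and 4.78 and 35.1 CPM in H and I. The supported mean was 231.6 ± 49.6 CPM (SD, n = 5), the preterm mean 19.9 ± 21.4 CPM (SD, n = 2) and the log2 fold change 3.53 ± 0.62 (SE, adjusted p by edgeR 0.0272). The lowest late preterm library was above both preterm libraries. The log2 fold change was 2.79 without H and 5.17 without I, so its size rested on the preterm lambs.

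ENSOARG00000013834 showed the same order with less spread. It read 446, 313, 409, 313 and 407 CPM in A to E, 401 and 175 CPM in F and G, and 26.2 and 47.2 CPM in H and I, for a log2 fold change of 3.23 ± 0.38 (SE, adjusted p by edgeR 0.0203). Leaving out H moved this to 3.07 with an edgeR adjusted p of 0.0201. ENSOARG00000006966 read 126, 44.8, 146, 146 and 132 CPM in A to E, 182 and 63.97 CPM in F and G, and 9.91 and 27.1 CPM in H and I, for a log2 fold change of 2.59 ± 0.61 (SE, adjusted p by edgeR 0.0386). Its lowest supported library was B rather than D.

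Of the 2 genes called lower, ENSOARG00000003093 read 21.9, 19.8, 22.4, 12.6 and 20.5 CPM in A to E, 21.6 and 16.5 CPM in F and G, and 25.1 and 50.3 CPM in H and I. Its log2 fold change was -1.07 ± 0.26 (SE, adjusted p by edgeR 0.0398), and the preterm libraries were its 2 highest. ENSOARG00000006268, given because only 2 genes were called lower, read 12.0, 12.0, 14.8, 8.29 and 12.9 CPM in A to E, 15.8 and 11.7 CPM in F and G, and 14.6 and 29.2 CPM in H and I. Its log2 fold change was -0.99 ± 0.27 (SE, adjusted p by edgeR 0.0488), and H lay just below C.

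**Figure D5:**
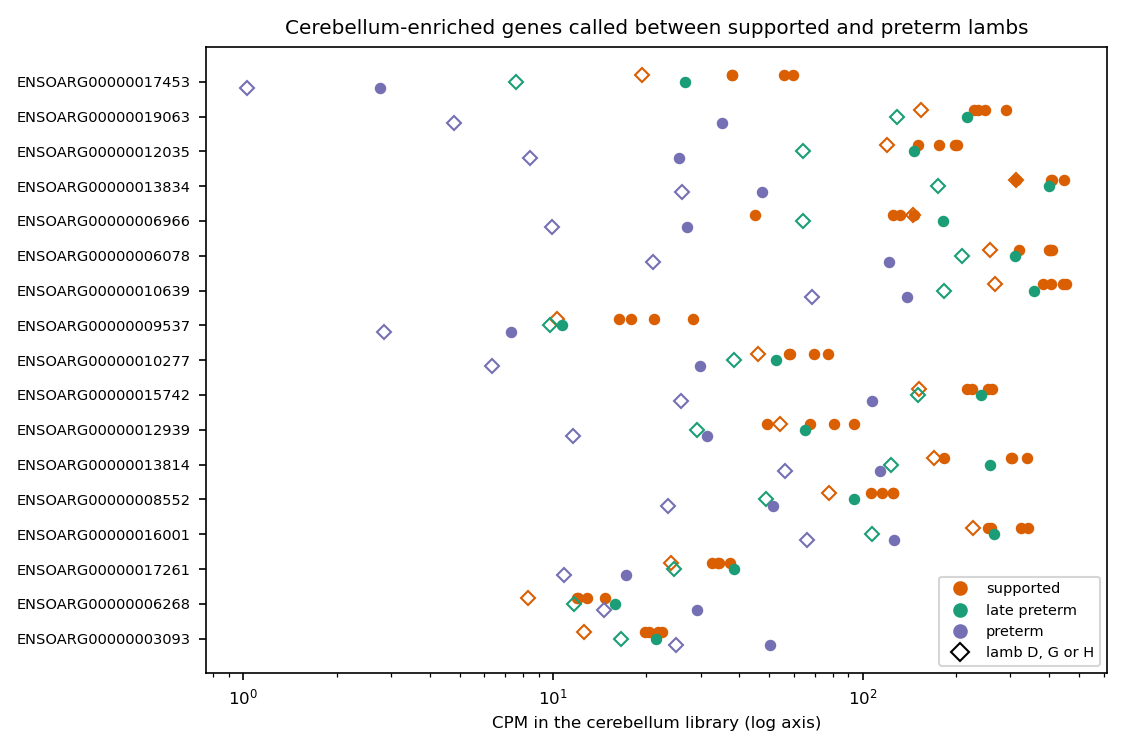
CPM (log axis) of the 17 genes called between supported and preterm lambs in each of the 9 cerebellum libraries, with genes ordered by fold change, points coloured by arm and open diamonds for D, G and H. In the 15 genes called higher both preterm points lie left of all supported points, and in ENSOARG00000006268 the arms overlap.

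The comparison was repeated without D, G and H in the cerebellum, which leaves A, B, C and E against the single preterm lamb I, with F in the fit. The test then assumes that the preterm arm varies like the others. The 6 libraries of this fit are those whose mean chose the 64 genes, so its counts and medians are a description. Of the 64 genes, 29 were called by edgeR, 25 higher with log2 fold changes of 0.91 to 4.30 and 4 lower with -0.73 to -1.50. Of 16503 genes tested, 7.63% were called, 4.85% higher and 2.78% lower. In both fits 15 genes were called, 13 higher and 2 lower. The median log2 fold change of the 64 genes was 0.47, against 0.02 over all genes. Under the rule that weighted the arms equally, 23 of 62 genes were called without D, G and H (19 higher and 4 lower) and the median log2 fold change was 0.07. Under the rule that used only the late preterm lambs, 24 of 59 were called (20 higher and 4 lower) and the median was 0.36.

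The largest changes without D, G and H were those of ENSOARG00000014882, with a log2 fold change of 4.30 ± 0.79 (SE, adjusted p by edgeR 0.0203), and ENSOARG00000017453, with 4.21 ± 0.45 (SE, adjusted p by edgeR 0.00359). ENSOARG00000014882 was not called with all 9 libraries (3.49 ± 1.38, adjusted p by edgeR 0.117), where the supported lamb D was its lowest library. The gene with the most reads, ENSOARG00000008845, had a log2 fold change of 1.17 ± 0.23 (SE, adjusted p by edgeR 0.0252) without D, G and H and 1.95 (adjusted p by edgeR 0.121) with them. ENSOARG00000010333 had 1.10 (adjusted p by edgeR 0.00669) and 1.29 (adjusted p by edgeR 0.0658). With all 9 libraries the log2 fold change of ENSOARG00000008845 ran from 1.05 without H to 4.74 without I.

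The largest change to lower levels in that fit was that of ENSOARG00000014932, with a log2 fold change of -1.50 ± 0.17 (SE, adjusted p by edgeR 0.00408). It read 30.9, 23.0, 27.8, 12.8 and 24.4 CPM in A to E, 27.6 and 31.4 CPM in F and G, and 6.60 and 80.0 CPM in H and I. The 2 preterm libraries were the lowest and the highest of the 9, so the direction depended on which was used. With all 9 libraries the log2 fold change was -0.84 (adjusted p by edgeR 0.338), without I it was 1.41 (adjusted p by edgeR 0.0220), and with sex as a covariate it was 0.10.

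The count of genes called in this comparison depended on single libraries, as did the count over all genes tested. It was 0 without A, B, C or E, where 0% of all genes were called too. It was 4 without D (0.353% of all genes), 3 without F (0.342%), 3 without G (0.414%), 8 without H (3.93%) and 38 without I (60.5%). These shares count both directions, and without I the preterm arm was H alone. In that fit the log2 fold change was positive for 46 of the 64 genes and negative for 18. Its median was 1.21 among the 64 and 0.14 over all genes tested. Without H, the preterm arm was I alone, and the log2 fold change was positive for 36 of the 64 genes and negative for 28. The median was then 0.355 among the 64 and 0.01 over all genes tested, so the lean to higher levels was smaller. Without H, all 15 genes called higher kept their sign, and 6 of the 17 genes were called.

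A fit with the depth group (A, H and I against the rest) as a term called none of the 64 genes and 0% of all genes, with a smallest adjusted p by edgeR of 0.430 among the 64. The fold changes were of similar size: the median log2 fold change of the 64 was 0.58 with the term and 0.55 without, and all 17 kept their sign. The median SE was 0.581 with the term and 0.414 without. Within the shallower lambs, A lay above both H and I in 38 of the 64 genes and below both in 8, against 35.7% and 28.1% of all genes tested.

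The second comparison set supported lambs against late preterm lambs of about the same gestational age. No cerebellum-enriched gene was called by edgeR, and 0% of all genes tested were. At an unadjusted p under 0.05 there were 2 of the 64 genes, ENSOARG00000017453 (log2 fold change 1.32 ± 0.57) and ENSOARG00000009537 (0.90 ± 0.39), and DESeq2 called none of the 64 and 0.0429% of all genes. Over all genes, 1.19% had an unadjusted p that low. The log2 fold change was positive for 47 of the 64 genes with a median of 0.21, and without D, G and H it was positive for 33 with a median of 0.00. Without G it was positive for 26 with a median of -0.10, and without F for 56 with a median of 0.58. Both late preterm lambs were male and 4 of the 5 supported lambs female, and with sex as a covariate it was positive for 57 with a median of 0.54. The direction of the list therefore rested on G. For ENSOARG00000017453 the log2 fold change was 0.67 without G and 2.51 without F. ENSOARG00000009537 read 21.2, 16.4, 17.9, 10.3 and 28.3 CPM in A to E, 10.7 and 9.76 CPM in F and G, and 2.85 and 7.32 CPM in H and I. Its late preterm libraries lay near D and below the other supported libraries. With 2 late preterm lambs, the absence of calls is no measure of likeness between the arms.

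The third comparison set late preterm against preterm lambs and shares its libraries with both of the others. With all 9 libraries no gene was called by edgeR, 0% of all genes tested. At an unadjusted p under 0.05 there were 18 of the 64 genes and 22.4% of all genes, and DESeq2 called 11 of the 64 and 8.58% of all genes. The smallest edgeR adjusted p among the 64 was 0.181. Without I, 33 of the 64 and 56.1% of all genes were called. Without D, G and H, only the 6 libraries that chose the genes were left, so the counts from that fit are a description. A single late preterm lamb, F, stood against a single preterm lamb, I, and the spread came from the supported lambs. Then 14 of the 64 genes were called by edgeR, 12 higher and 2 lower, against 1.46% of all genes tested (1.34% higher and 0.121% lower).

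In that fit the largest differences between F and I were those of ENSOARG00000017453, with a log2 fold change of 3.36 ± 0.49 (SE, adjusted p by edgeR 0.0269), and ENSOARG00000013834, with 3.17 ± 0.23 (SE, adjusted p by edgeR 0.00696). ENSOARG00000014932 had -1.45 ± 0.23 (SE, adjusted p by edgeR 0.0363) and ENSOARG00000003093 -1.14 (adjusted p by edgeR 0.0446). With all 9 libraries but I, the log2 fold change of ENSOARG00000014932 was 1.70, in the other direction. The same 4 genes were among those named between supported and preterm lambs, and I was in both comparisons.

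In the motor cortex, 44 of the 64 genes had enough reads to be tested between supported and preterm lambs. Only 3 were called by edgeR, all lower in supported lambs, against 12.2% of all genes tested there (6.46% higher and 5.79% lower). ENSOARG00000001800 read 12.65, 19.4, 11.2, 9.59 and 17.5 CPM in the motor cortex of A to E, 18.6 and 14.8 CPM in F and G, and 49.3 and 57.5 CPM in H and I. Its log2 fold change was -1.87 ± 0.23 (SE, adjusted p by edgeR 0.00113), and both preterm libraries were above the other 7.

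ENSOARG00000011337 read 5.46, 7.57, 4.94, 5.18 and 5.81 CPM in the motor cortex of A to E, 11.3 and 7.22 CPM in F and G, and 9.53 and 25.02 CPM in H and I. Its log2 fold change was -1.51 ± 0.31 (SE, adjusted p by edgeR 0.0120) and -0.69 without I, and F lay above H. The remaining one, ENSOARG00000010277, read 3.12, 4.29, 2.62, 2.48 and 2.88 CPM in A to E, 4.60 and 3.81 CPM in F and G, and 5.26 and 7.59 CPM in H and I, with a log2 fold change of -1.01 ± 0.27 (SE, adjusted p by edgeR 0.0359). In the cerebellum the same gene was among those called higher in supported lambs, at a log2 fold change of 1.73 ± 0.43 (SE, adjusted p by edgeR 0.0432). There it read 69.8, 58.4, 57.8, 46.0 and 77.4 CPM in A to E, 52.6 and 38.5 CPM in F and G, and 6.38 and 29.9 CPM in H and I, and the log2 fold change was 1.12 without H and 2.85 without I. The difference between the 2 regions was not tested. The count in the motor cortex was 1 without I (3.63% of all genes) and ran up to 4 with other libraries left out. With the depth group as a term it was 0 of 59 tested, against 1.01% of all genes.

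In the hippocampus, 48 of the 64 genes were tested and edgeR called none, against 2.52% of all genes tested. At an unadjusted p under 0.05 there were 10 of the 48 and 24.5% of all genes, and DESeq2 called 5 of the 48 and 13.1% of all genes. The 5 genes called by DESeq2 were 10.4% of the 48, and both shares among the 48 were near those of all genes. In the basal ganglia, 55 were tested and edgeR called none, against 0% of all genes tested. At an unadjusted p under 0.05 there were 2, ENSOARG00000010333 and ENSOARG00000003093, against 12.2% of all genes, and DESeq2 called none of the 55 and 3.4% of all genes. The log2 fold change in the basal ganglia was positive for 49 of the 55 genes with a median of 0.84, and the median was 0.07 without lamb C. The library of C thus carried that median.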

How the data were processed

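Per the labels, mRNA libraries were made from frozen tissue of 4 brain regions of 9 lambs. The authors' steps, per the series' design text, were trimming with fastp, quality checks with SeqKit and alignment with STAR against Ensembl release 107; tool versions: not given in the sources used here. The deposited values are STAR's whole-number counts per gene, from the column that ignores strand, so overlapping or antisense genes can share reads and near-identical copies may lose them.

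CPM was each count over its column total. Each region was fitted with edgeR 4.0.16 (R 4.3.3; filterByExpr, TMM, quasi-likelihood F-test, 3 arms as 1 factor), with Benjamini-Hochberg adjustment over all genes tested and a threshold of 0.05. The script was tested on simulated counts. Alternatives were DESeq2 1.42.0, other normalization and filters, sex or depth as a term, and leaving out libraries. No same-arm cerebellum library was a copy of another (chi-square per degree of freedom 9.21 to 206).

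The 64 genes, the gene lists and the tests were chosen with earlier results of these data known. Genes named were the 8 highest means, the 4 highest ratios, the 3 nearest the edge on each side, the 3 highest and lowest CVs, the 2 highest and lowest in each of D, G and H, the 3 highest in 1 other library, and up to 2 called per direction and comparison. Where a count was very small, the genes in it were named too, after their values were seen. Lists of granule cell, Purkinje cell, glial, forebrain and other markers were not tested because no symbol could be assigned.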

Additional observations from a re-analysis of the deposited data

Results flagged for a closer look

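In groups of 5 supported lambs, a library was marked when its gap to the nearest of the others was large against the whole range of the group (Dixon's criterion). Of 35 groups tested, 5 were marked. Chance marks about 1 in 20 where groups are not picked for their values. The groups here included 31 named genes, many of them named for extreme values in these libraries. The number marked is therefore no measure of an excess. ENSOARG00000006342 was at 5968 CPM in the cerebellum of B, with the other supported libraries between 3.49 and 42.6 CPM. ENSOARG00000006966 was at 44.8 CPM in the cerebellum of B, below the 126 to 146 CPM of the others. ENSOARG00000014467 was at 66.3 CPM in the cerebellum of E, above the 23.0 to 34.9 CPM of the others, and E also had the highest value of this gene outside the cerebellum. ENSOARG00000003093 was at 12.6 CPM in the cerebellum of D, below the 19.8 to 22.4 CPM of the others. The 64 genes together held 0.0646% of the counts in the motor cortex of B, above the 0.0222% to 0.0301% of the other supported lambs. Of the 5, 3 were libraries of lamb B.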

How the results depend on the processing

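The rule found 148 genes at 4-fold and 34 at 16-fold, and 60 to 69 with 1 lamb left out. Between supported and preterm cerebellum, the 17 genes called (9.57% of all genes) became 29 with DESeq2 (25.4%), 3 with only the compared arms in the fit (0.461%), 0 with depth as a term (0%), 29 without D, G and H (7.63%), and 0 to 38 with 1 library left out (0% to 60.5%). Between late preterm and preterm cerebellum, the 0 called became 11 with DESeq2 (8.58% of all genes), 14 without D, G and H (1.46%), and 0 to 33 with 1 library left out (0% to 56.1%). In the motor cortex, the 3 called became 6 with DESeq2 (16.7% of all genes), 0 with depth as a term, and 1 to 4 with 1 library left out. In the hippocampus, the 0 called became 5 with DESeq2 (13.1% of all genes). The median level in H relative to the 6 libraries was 28.0%, and 38.9% with TMM scaling, which uses the factor of H given above. Among recomputed fold changes of the genes named in a comparison, 230 kept their direction and side of the threshold, 95 lost the call, 21 gained it and 3 changed sign. Those 3 were of ENSOARG00000014932: 0.10 with sex as a covariate and 1.41 without I between supported and preterm, and 1.70 without I between late preterm and preterm. Without 1 library its log2 fold change ran from -1.68 to 1.41 and from -1.39 to 1.70 in these comparisons. Apart from the fits with fewer samples, the cause was not tested. No paired analysis was possible because the arms hold different lambs within a region. Depth limits genes with few reads in H: 1 read there was 0.114 CPM.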
